A study of Mus musculus with 6 samples.

Results

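Genes of mitosis and the spindle were followed in double-negative thymocytes, early T cell precursors without CD4 or CD8 on their surface, from RAG1/Ezh2 double mutant mice (3 arrays) and from RAG1-deficient mice (3 arrays). A list of 48 genes was read from every probe set that the array's annotation names for exactly 1 gene of the list. This gave 55 probe sets of 41 genes, of 12422 probe sets of 8251 named genes in all, leaving out the array's control probe sets. The genes were chosen by function, with the intensity differences between the groups on these 6 arrays, pair by pair, already known. Those differences are therefore given as descriptions, and counts of calls among the members support nothing by themselves. Per the sample descriptions, both groups are deficient in or mutant for RAG1, and the double mutant is mutant for Ezh2 as well. The labels do not give the alleles, the strain, sex or age of the mice, nor how many animals a group stands for, so a p-value measures the spread between samples alone, and that spread may be technical.

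RAG1 cuts antigen receptor genes for their assembly, and thymocytes without it do not pass the double-negative stage. Ezh2 methylates histone H3 as the enzyme of a Polycomb complex. In a dividing cell, cyclin-dependent kinase 1 with cyclin A or B drives entry into mitosis, Aurora and Polo-like kinases build the spindle, the spindle checkpoint holds back the anaphase-promoting complex until every chromosome is attached, and kinesin motors then separate the chromosomes and the daughter cells. Most transcripts of these proteins peak in G2 and mitosis, so their level in a cell population is commonly read as a sign of how many cells are dividing. Early double-negative thymocytes include dividing cells, and a further burst of division follows once a T cell receptor beta chain is made.

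Each value is a linear intensity, scaled so that every array has the same trimmed mean, and intensities of different probe sets cannot be set against each other. Differences are double mutant minus RAG1-deficient on the scale log2(intensity + 23), where changes of dim probe sets come out too small. Of the 41 genes, 40 had their brightest probe set above the filter of 86.5 on at least 3 arrays and were tested, with 45 probe sets. Cenpe, a kinetochore motor gene, was the exception, at 46.3, 15.6 and 8.3 in double mutant arrays, against 24.5, 3.2 and 53.1 in RAG1-deficient arrays. Its dimmer probe set, also under the filter, was lower without overlap. It had 16.7, 6.7 and 6.6 in double mutant arrays, against 46.3, 17.4 and 22.1 in RAG1-deficient arrays. No probe set named for Ccnb1, Cdc25b, Tpx2, Bub1b, Espl1, Hmmr or Cenpf alone was analysed here.

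The sample titles come in 3 styles, here called numbered, Rag and Thy, and every style has 1 double mutant and 1 RAG1-deficient array. Replicate 1 of both groups has the numbered style, replicate 2 the Rag style and replicate 3 the Thy style. The Rag1 probe set gave 5171 to 5394 units in double mutant arrays and 6933 to 7264 in RAG1-deficient arrays, and whether it lies outside the part of the gene that was changed is not known here. Ezh2 averaged 555 ± 231 in the double mutant and 1622 ± 178 in RAG1-deficient arrays (SD, n = 3 each). It passed in the limma fit with title style as a block, called the paired fit here (adjusted p = 0.0261), but not in the unpaired fit, which has no block (0.332). RAG1-deficient replicate 1 goes against its label in 1 respect, since Cd8a and Cd8b1, the genes of both CD8 chains, gave 2973 and 8426 units there and at most 81.3 and 164 on the other 5 arrays. Of the 3 double-positive stage markers, all 3 were on the array, and they summed to 79.1 to 429.6 in the double mutant and 232 to 12098 in RAG1-deficient arrays. The 4 NK and innate lymphoid markers on the array, of 6 listed, summed to 6752 to 9338 in double mutant arrays, against 1952 to 3476 in RAG1-deficient arrays, without overlap (exact permutation p = 0.1, the smallest that 3 against 3 allows). Gzma, at 4982 to 8096 in double mutant arrays and 1244 to 2796 in RAG1-deficient arrays, made up most of that sum. Gzmb did not overlap either, whereas Klrk1 and Ncr1 overlapped and were lower in the double mutant in the Rag pair. Marker sums of B lineage, dendritic, erythroid, myeloid and stromal cells overlapped between the groups, as did the 3'/5' ratios of the Gapdh and actin control probe sets, and no marker was listed at 0. Single arrays still differed. The myeloid sum was 12428 on RAG1-deficient replicate 2 and 2753 to 5112 on the other 5 arrays. The erythroid sum was 1030 and 532 on the double mutant and RAG1-deficient Thy arrays, against 16766 to 30780 on the others. The part of all these markers and ratios in the results below was not tested. Of the 12 markers of double-negative thymocytes, 11 were on the array and 10 passed the filter. The 11 summed to 39510.3 to 54009 in double mutant arrays and 44768 to 64826 in RAG1-deficient arrays, with overlap. Of the 10 that passed, 9 had a log2 difference below 0, and Ptcra, at 4614 to 5964 in double mutant arrays, against 6588 to 10480.1 in RAG1-deficient arrays, and Rag1 were lower without overlap. Cd44 did not pass, at 17.4 to 84.7 in the double mutant and 45.3 to 69.9 in RAG1-deficient arrays.

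Most of the mitotic genes lay slightly higher in the double mutant, and 1 of them, Cenpv, lay far higher. Of 40 tested genes, 35 had a log2 difference above 0, against 49.6% of all tested probe sets. The median over the genes was 0.28, against -0.0021 over all tested probe sets, and the middle of the list ran from 0.08 to 0.40 between its quartiles. In 21 of the 40 genes the double mutant was higher in all 3 title-style pairs, against 18.8% of all tested probe sets, and in 1 gene it was lower in all 3, against 17.1%. By pair, the median was 0.10 (numbered), 0.32 (Rag) and 0.33 (Thy). Without RAG1-deficient replicate 1, the array with CD8 transcripts, the median was 0.35 and 35 genes were above 0. Without RAG1-deficient replicate 2, the array with the highest myeloid marker sum, the median was 0.16, with 30 genes above 0. The median over all tested probe sets was then -0.05. Leaving out either array leaves its title style in the double mutant only. With the whole pair left out the median was 0.34 (numbered) and 0.25 (Rag), with 36 and 35 genes above 0. In bulk RNA, more dividing cells and more of a transcript in each cell cannot be told apart.

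Few of these shifts passed a test over all probe sets or left the groups without overlap. The SE printed with group differences come from the unpaired fit, which counts differences between title styles as spread. In the paired fit the SE of the tested members were smaller, for example 0.12 instead of 0.23 for Top2a and 0.19 instead of 0.58 for Foxm1. In the unpaired limma fit 0 of the 45 member probe sets passed, and 3 of all 7642 did (0.0393% higher and 0% lower). Without adjustment, 1 member was higher and 0 were lower at p under 0.05, against 2.29% and 0.903% of all tested probe sets. In the paired fit Cenpv alone of the list passed, as higher, against 0.563% higher and 0.105% lower overall. The groups did not overlap in 4 member probe sets, those of Cenpv, Kif4 and Kif23 and the dimmer of Kif20a, all higher in the double mutant, which is 8.89% against 4.21% of all tested probe sets. Among the tested member probe sets none was lower without overlap, against 2.92% of all tested probe sets.

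**Figure D1:**
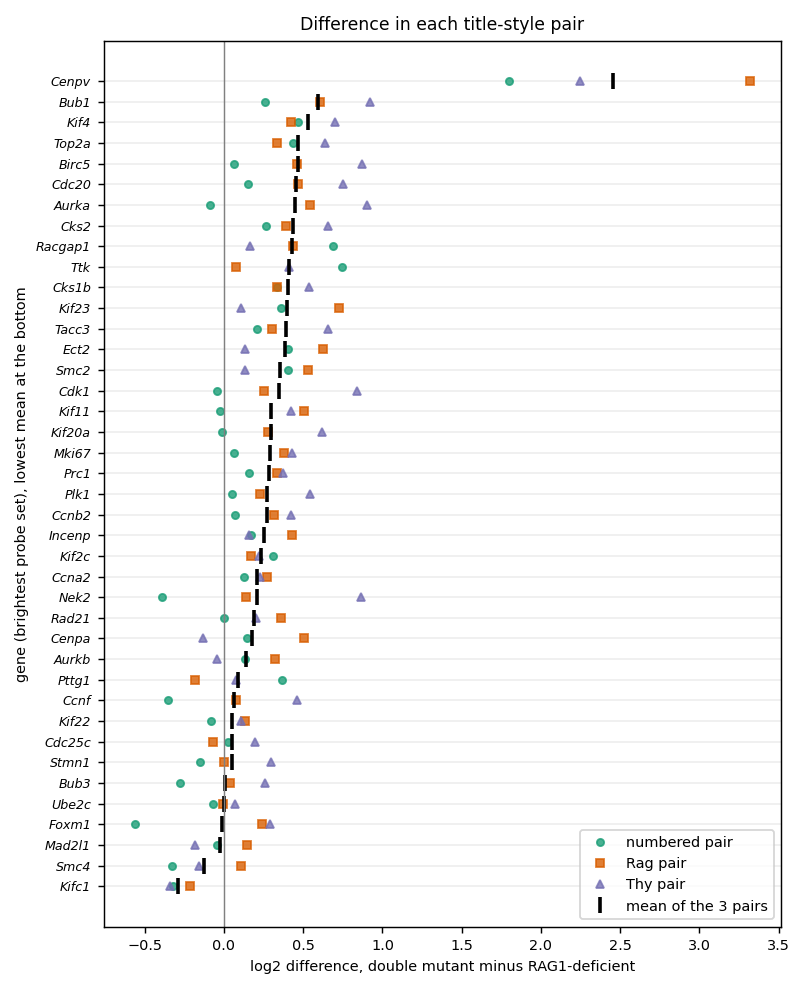
Log2 difference, double mutant minus RAG1-deficient, of the 40 tested mitosis and spindle genes in each title-style pair (symbols) and on average (bars), with 1 row per gene. Cenpv stands alone near 2.46, and 34 of the other 39 averages lie between 0 and 0.60.

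Cenpv encodes a centromere protein that was described in human cells as needed for centromere organisation and the final steps of division. It had 1018, 1462 and 1009 intensity units in double mutant arrays, against 276, 126 and 194 in RAG1-deficient arrays. The lowest double mutant array was thus well above the highest RAG1-deficient array. The log2 difference was 2.46 ± 0.31 (SE), the 8th highest of all tested probe sets. By pair it was 1.80 (numbered), 3.32 (Rag) and 2.25 (Thy). Its adjusted p was 0.0192 in the paired and 0.0566 in the unpaired limma fit. Without RAG1-deficient replicate 1 the unpaired difference was 2.70 (limma, adjusted p = 0.0325), and over all alternatives it lay between 2.02 and 2.78. A second, dim probe set of Cenpv lay under the filter, at 89.2, 63.3 and 33.9 in double mutant arrays, against 40, 18.6 and 51.9 in RAG1-deficient arrays. The next highest member, Bub1, had a log2 difference of 0.60, which ranked 303rd.

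**Figure D2:**
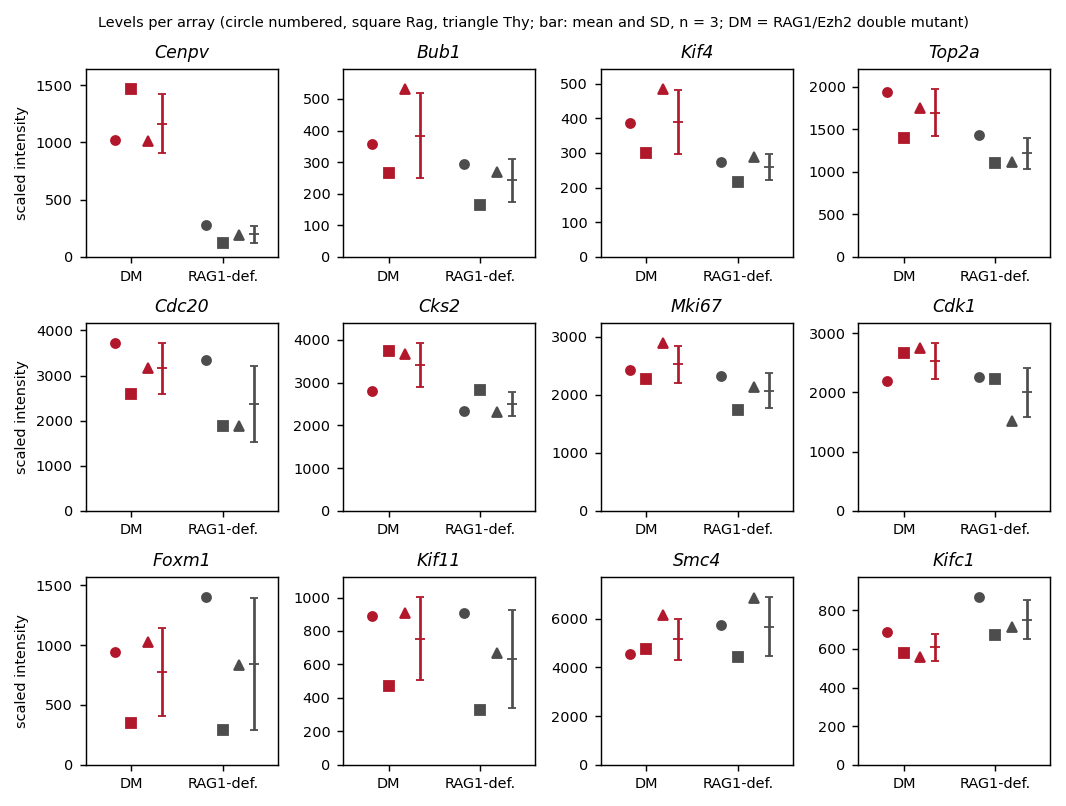
Scaled intensity of 12 members on each array, with the double mutant (DM) left of RAG1-deficient, symbols for title style, and the mean with SD (n = 3) beside the points. Cenpv and Kif4 do not overlap between the groups, whereas Foxm1 and Kif11 are lowest on the arrays with Rag titles in both groups.

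The promoters of the list share sequence features that the choice of members did not use. Cell cycle genes of late phases are known to carry CCAAT boxes, bound by the factor NF-Y, and a CHR element, most often TTTGAA, bound by the MuvB complex, which represses them in resting cells and activates them in G2 and mitosis. Of the RefSeq promoters of build GRCm38.p6, 250 bases before to 50 after a gene start, only the first listed of each gene was read. Any other start of a gene was not searched. Promoters were at hand for 38 of the 48 genes. None was at hand for Ccna2, Foxm1, Aurkb, Kif20a, Cdc25c, Incenp, Rad21, Smc4, Stmn1 or Tpx2. Among the 38 were Ccnb1, Cdc25b, Bub1b, Espl1, Hmmr, Cenpf and Cenpe, which were not tested on the array. CCAAT or its reverse complement ATTGG occurred in 32 of the 38 (84.2%), against 37.9% of 27025 genes in the table and 38.5% of 4674 genes tested on the array. TTTGAA or its reverse complement TTCAAA occurred in 27 (71.1%), against 18.1% and 12.4%. Both motifs were present in 26 (68.4%), against 7.12% and 5.35%. A pair or more of CCAAT matches was found in 22 members (57.9%), against 12.2% of all genes and 15.7% of tested genes. Only 1 pair of matches overlapped. The motifs were not confined to the list. Promoters of 86 other mitotic genes and 36 DNA replication genes, tested or not, were also read. Among the other mitotic genes, CCAAT was found in 44 (51.2%), TTTGAA in 30 (34.9%) and both in 17 (19.8%). These shares lie between those of the list and those of all tested genes. Among the DNA replication genes, TTTGAA was found in 3 (8.33%) and CCAAT in 22 (61.1%). CCAAT at 2 or more places was found in 27.9% of the other mitotic and 36.1% of the DNA replication promoters. Of the 36 TTTGAA matches in members, 25 began no further than 50 bases from the gene start, and 46 of the 74 CCAAT matches began within the 100 bases before it. A match in a window is a run of letters and was not tested as a binding site.

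**Figure D3:**
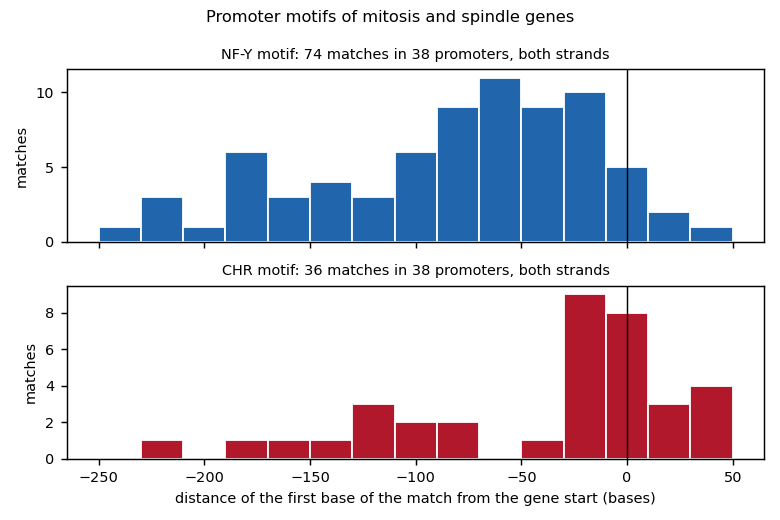
Number of motif matches by distance of their first base from the gene start, in bins of 20 bases, for the CCAAT box bound by NF-Y (above) and for TTTGAA of the CHR element (below) in 38 member promoters, both strands. The 36 CHR matches crowd around the start, and the 74 CCAAT matches lie mostly before it.

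The promoters of Top2a, Cdk1 and Ccnb2 are printed because they hold both motifs several times, and that of Cenpv because it holds neither, although Cenpv had the largest difference of the list. Each is written in the direction of the gene, and capitals mark every CCAAT and TTTGAA match on either strand.
Top2a, GRCm38.p6 chr11:99024140-99024439, minus strand: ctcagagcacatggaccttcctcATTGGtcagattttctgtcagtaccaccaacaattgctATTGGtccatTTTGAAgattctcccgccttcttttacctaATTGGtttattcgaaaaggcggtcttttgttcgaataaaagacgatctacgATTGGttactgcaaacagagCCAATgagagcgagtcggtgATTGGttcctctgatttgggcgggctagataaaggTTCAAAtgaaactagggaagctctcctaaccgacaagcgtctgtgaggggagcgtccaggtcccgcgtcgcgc
Cdk1, GRCm38.p6 chr10:69352863-69353162, minus strand: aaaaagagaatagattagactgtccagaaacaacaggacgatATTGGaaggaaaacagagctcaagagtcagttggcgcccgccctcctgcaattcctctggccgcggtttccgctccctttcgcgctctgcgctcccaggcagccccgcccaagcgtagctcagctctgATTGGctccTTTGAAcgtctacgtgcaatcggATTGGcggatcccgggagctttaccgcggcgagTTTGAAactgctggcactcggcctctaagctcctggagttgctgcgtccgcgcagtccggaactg
Ccnb2, GRCm38.p6 chr9:70421505-70421804, minus strand: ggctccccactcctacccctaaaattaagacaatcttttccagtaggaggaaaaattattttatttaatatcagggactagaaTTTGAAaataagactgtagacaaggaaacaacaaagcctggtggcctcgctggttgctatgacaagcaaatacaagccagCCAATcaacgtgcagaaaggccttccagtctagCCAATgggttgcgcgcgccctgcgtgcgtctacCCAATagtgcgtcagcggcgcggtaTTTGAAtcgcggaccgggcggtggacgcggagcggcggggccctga
Cenpv, GRCm38.p6 chr11:62539212-62539511, minus strand: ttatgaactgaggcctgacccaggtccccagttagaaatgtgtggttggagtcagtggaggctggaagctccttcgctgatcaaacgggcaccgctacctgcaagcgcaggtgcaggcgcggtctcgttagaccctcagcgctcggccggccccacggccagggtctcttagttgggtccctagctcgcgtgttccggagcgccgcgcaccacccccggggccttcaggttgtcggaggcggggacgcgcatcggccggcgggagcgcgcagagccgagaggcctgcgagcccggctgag
Top2a had 6 CCAAT and 2 TTTGAA matches, whereas Cdk1 and Ccnb2 each had 3 and 2. Cenpv had 0 of either, as did Birc5, Mad2l1, Pttg1 and Tacc3. The log2 differences of these 5 genes varied, at 2.46 for Cenpv, 0.47 for Birc5, 0.39 for Tacc3, 0.09 for Pttg1 and -0.03 for Mad2l1.

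Cyclins and regulators of Cdk1 lay a little higher in the double mutant, with 7 of 8 tested genes above 0 and a median log2 difference of 0.24. Cdk1, the kinase that starts mitosis, had 2188, 2658 and 2741 units in double mutant arrays, against 2256, 2226 and 1519 in RAG1-deficient arrays. Its groups overlapped through the numbered pair, where the difference was -0.04, and the mean difference was 0.35 ± 0.24 (SE). Cks2 and Cks1b encode small subunits that bind Cdk1 and its relatives. Cks2 stood at 2811, 3729.9 and 3667 in double mutant arrays, against 2339, 2834 and 2319.6 in RAG1-deficient arrays. It was higher in all 3 pairs, by 0.44 ± 0.22 (SE) on average, though the lowest double mutant array fell just under the highest RAG1-deficient one. Cks1b likewise was higher in all 3 pairs, by 0.33, 0.33 and 0.54.

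The B-type cyclin gene Ccnb2 had 4817, 4292 and 4544 units in double mutant arrays, against 4586, 3440.5 and 3379 in RAG1-deficient arrays. Its log2 difference of 0.27 ± 0.21 (SE) was positive in each pair but only 0.07 in the numbered pair. Ccna2, the cyclin A of dividing somatic cells, had 1946, 1086 and 1843 units in double mutant arrays, against 1784, 895 and 1574 in RAG1-deficient arrays. It was higher in all 3 pairs, by 0.12, 0.27 and 0.23, and by 0.21 ± 0.33 (SE) on average. In both groups its array with a Rag title was far below the others. Foxm1, a transcription factor that activates G2 and mitotic genes, showed the same pattern more strongly. It had 939, 351 and 1027 units in double mutant arrays, against 1400.2, 293 and 836 in RAG1-deficient arrays, a difference of -0.01 ± 0.58 (SE). The tested probe set of Foxm1 ends in _g_at, a suffix grouped here with those of probes shared by related transcripts. Ccnf, an F-box protein gene, was at 0.06, and the phosphatase gene Cdc25c at 0.05 and -0.00090 in its 2 probe sets. The brighter probe set of Cdc25c ends in _s_at, a suffix of less specific probes.

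Genes of the mitotic kinases and their Aurora partners were all above 0, with 7 of 7 and a median of 0.27. Aurka, the kinase of spindle poles, had 525, 630.1 and 809 units in double mutant arrays, against 560.0, 425.5 and 423 in RAG1-deficient arrays. The difference was 0.45 ± 0.25 (SE), but it was -0.09 in the numbered pair. Birc5, which encodes survivin of the chromosomal passenger complex, had 1317, 1219 and 1373 units in double mutant arrays, against 1258, 879 and 740.0 in RAG1-deficient arrays. Here the RAG1-deficient numbered array reached the double mutant's level, and the difference was 0.47 ± 0.24 (SE). By pair it was positive throughout, at 0.07, 0.46 and 0.87. Aurkb, the kinase of that complex, had 719.6, 688 and 781 units in double mutant arrays, against 655, 545.5 and 807 in RAG1-deficient arrays, so the groups overlapped widely at 0.14 ± 0.22 (SE). Incenp, its scaffold, was at 0.25 and 0.13 in its 2 tested probe sets.

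Plk1, the Polo-like kinase that acts throughout mitosis, was read by 3 tested probe sets. All 3 end in _g_at or _f_at, suffixes grouped here with those of probes shared by related transcripts. The brightest had 1284, 658 and 1111 units in double mutant arrays, against 1240.1, 559 and 756 in RAG1-deficient arrays, and a log2 difference of 0.27 ± 0.35 (SE). This brightest probe set was higher in all 3 pairs, by 0.05, 0.22 and 0.54. The other 2 gave 0.31 and 0.11, and each was lower in the double mutant in 1 pair. Tacc3, a spindle protein recruited by Aurora A, was higher in all 3 pairs, by 0.39 on average. Nek2, a centrosome kinase, ranged from -0.39 in the numbered to 0.87 in the Thy pair.

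Genes of the spindle checkpoint and of anaphase were split, with 5 of 7 above 0 and a median of 0.09. Bub1, a checkpoint kinase of the kinetochore, had 356.5, 264 and 530.2 units in double mutant arrays, against 294, 165 and 269 in RAG1-deficient arrays. It was higher in all 3 pairs, by 0.60 ± 0.33 (SE), but the double mutant array with the Rag title fell below 2 RAG1-deficient arrays. Cdc20, the activator of the anaphase-promoting complex, had 3714, 2599 and 3158 units in double mutant arrays, against 3342, 1878 and 1870.4 in RAG1-deficient arrays. The RAG1-deficient numbered array lay above 2 of the double mutant arrays, and the difference was 0.45 ± 0.28 (SE). By pair it was positive throughout, at 0.15, 0.46 and 0.75. The checkpoint kinase gene Ttk was higher in each pair, by 0.41 on average. Mad2l1, which inhibits Cdc20, had the smallest standard error of the tested members in the unpaired fit. It had 1474, 1510.3 and 1488 units in double mutant arrays, against 1518, 1364 and 1693 in RAG1-deficient arrays. Its difference was -0.03 ± 0.20 (SE). Bub3, its checkpoint partner, the securin gene Pttg1 and the ubiquitin-conjugating enzyme gene Ube2c lay between -0.0016 and 0.09. Pttg1 and Ube2c were read by probe sets whose suffix (_s_at, _r_at) marks less specific probes.

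Motor and spindle microtubule genes lay higher in 10 of 11, with a median of 0.29. Kif4, a chromosome-bound kinesin, had 385, 299.8 and 483 units in double mutant arrays, against 273, 217.5 and 288 in RAG1-deficient arrays. All 3 double mutant arrays were above all RAG1-deficient ones, by a log2 difference of 0.53 ± 0.26 (SE). Kif23, a kinesin of the central spindle, had 933, 1039.6 and 1004 units in double mutant arrays, against 722, 619 and 931 in RAG1-deficient arrays. Its groups were only just apart, at 0.40 ± 0.22 (SE). Its partner in the centralspindlin complex, Racgap1, was higher in each pair, by 0.43 on average, as was Ect2, the exchange factor that this complex recruits for cytokinesis, by 0.39. Prc1, a microtubule bundling protein, and Kif2c, which shortens microtubules at centromeres, were also higher in each pair, by 0.29 and 0.23 on average.

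Kif11, the motor that pushes spindle poles apart, had 888, 469 and 906 units in double mutant arrays, against 905, 324.5 and 670.2 in RAG1-deficient arrays. The array with the Rag title was the lowest of each group, and the difference was 0.30 ± 0.40 (SE). Kifc1, a kinesin that moves towards microtubule minus ends, was the only tested member lower in all 3 pairs. It had 690.2, 578.0 and 559 units in double mutant arrays, against 868, 674 and 714 in RAG1-deficient arrays, a difference of -0.29 ± 0.22 (SE) with a small overlap. Its only probe set ends in _f_at, which marks probes shared by related transcripts. Kif20a, a kinesin of cytokinesis, gave 0.29 with its brighter probe set, of the same kind, and 0.63 with the other. Kif22, a kinesin that binds chromosome arms, and Stmn1, the microtubule-destabilising stathmin, were each at 0.05. The probe set of Kif22 ends in _r_at, a suffix of less specific probes. Stmn1 was at 12056 to 15460 in the double mutant and 12568 to 13986 in RAG1-deficient arrays.

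Of the genes of chromosome structure, 4 of 5 were above 0, with a median of 0.29. Top2a, the topoisomerase that untangles chromosomes, had 1937, 1399 and 1746 units in double mutant arrays, against 1428, 1104 and 1114 in RAG1-deficient arrays. It was higher in all 3 pairs, by 0.47 ± 0.23 (SE), and its groups overlapped narrowly, through the double mutant array with the Rag title. Mki67, the gene of the proliferation antigen Ki-67, had 2426, 2265 and 2882 units in double mutant arrays, against 2326, 1738 and 2137 in RAG1-deficient arrays. It was higher in each pair, by 0.06, 0.38 and 0.43. The condensin genes parted, with Smc2 at 0.36 ± 0.26 (SE) and Smc4 at -0.12 ± 0.24 (SE). Smc4 had 4566, 4769.6 and 6132 units in double mutant arrays, against 5726, 4421 and 6847 in RAG1-deficient arrays, with full overlap. The cohesin gene Rad21 was at 0.19, and Cenpa, the histone H3 variant of centromeres, at 0.17 ± 0.23 (SE).

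**Figure D4:**
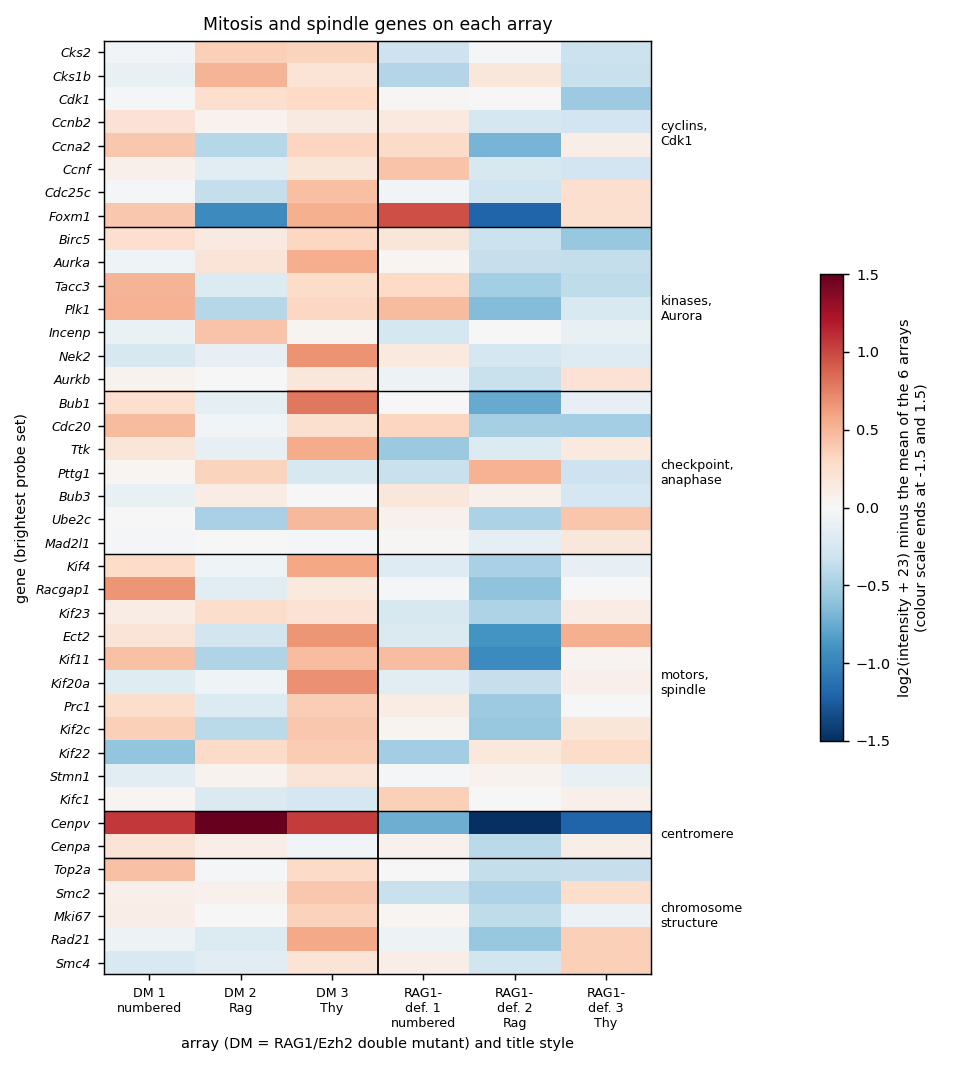
Log2(intensity + 23) of each tested member minus its mean over the 6 arrays, with genes in rows by role and arrays in columns, the double mutant (DM) on the left. Red is above and blue below a gene's mean, and Cenpv runs beyond the colour scale on the 2 arrays with Rag titles. RAG1-deficient replicate 2 is blue for most genes.

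The members also differed between title styles, which the labels do not explain. The arrays with Rag titles were compared with the other 4 in a limma fit with further terms for group and for Thy against numbered titles. The SE and p-values of this fit thus leave out the spread between Thy and numbered titles. This comparison was added after the data were seen. Of the 45 member probe sets, 12 were lower on the arrays with Rag titles (26.7%, against 17.1% of all tested probe sets) and 2 were higher (4.44%, against 11.7%). The lower ones were those of Foxm1, Kif11, Ect2, Ccna2, Plk1, Kif2c, Ube2c, Bub1, Rad21, Racgap1 and Prc1 and the dimmer of Incenp. Foxm1 was lower by a log2 difference of -1.62 ± 0.20 (SE, adjusted p = 0.00282) and Kif11 by -1.05 ± 0.17 (SE, adjusted p = 0.00573). The 2 that were higher there were Cks1b, by 0.51 ± 0.12 (SE, adjusted p = 0.0195), and Pttg1, by 0.64 ± 0.16 (SE, adjusted p = 0.0236). For Foxm1, Kif11 and Ccna2 the difference between title styles was thus several times that between the genotypes. The median of the 40 genes was -0.29 in this comparison, against -0.12 over all tested probe sets.

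The level of the list on each array followed both group and title style. The median deviation of the 40 genes from their 6-array means was 0.09, -0.05 and 0.32 in double mutant replicates 1 to 3, against 0.02, -0.35 and -0.05 in RAG1-deficient replicates 1 to 3. The groups overlapped, since double mutant replicate 2 lay below RAG1-deficient replicate 1. All tested probe sets had medians between -0.08 and 0.07 on the 6 arrays.

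**Figure D5:**
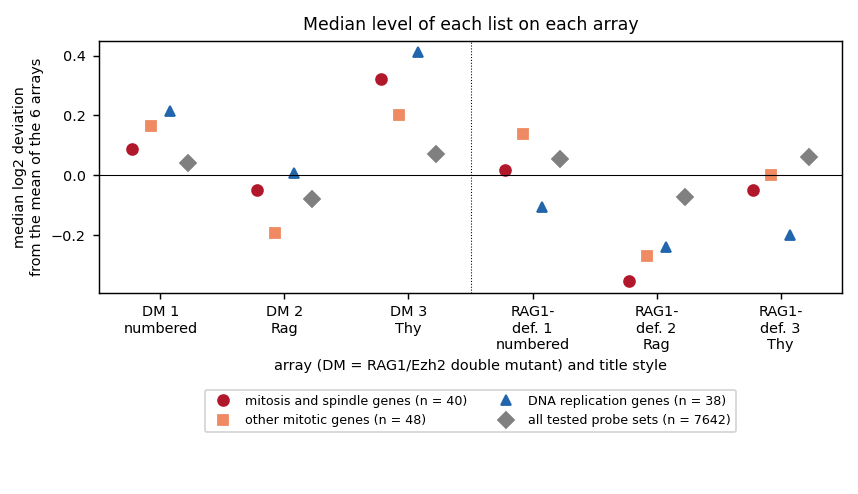
Median log2 deviation from the 6-array mean on each array, double mutant (DM) left of RAG1-deficient, for the 40 mitosis and spindle genes, 48 other mitotic genes, 38 DNA replication genes and all 7642 tested probe sets. Mitotic lists are lowest on the array with a Rag title within each group, and DNA replication genes are above 0 on every double mutant array and below 0 on every RAG1-deficient one.

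Other genes of mitosis that are not on the list lay closer to the background. Of 99 such genes 55 were on the array and 48 were tested. Of these, 31 were above 0 (64.6%, against 49.6% of all tested probe sets), with a median log2 difference of 0.15. In 15 the double mutant was higher in all 3 pairs (31.2%, against 18.8% of all tested probe sets) and in 2 it was lower in all 3 (4.17%, against 17.1%). None passed in either limma fit. In the unpaired fit 0 had an unadjusted p under 0.05, against 2.29% higher and 0.903% lower of all tested probe sets. The highest were the condensin gene Ncaph at 0.46 ± 0.30 (SE), Ensa, an inhibitor of a mitotic phosphatase, at 0.46 ± 0.53 (SE), and the microtubule polymerase gene Ckap5 at 0.45 ± 0.38 (SE). The lowest were the centromere protein gene Cenpb at -0.27 ± 0.26 (SE), the kinetochore gene Zwint at -0.23 ± 0.21 (SE) and the beta tubulin gene Tubb4b at -0.22 ± 0.56 (SE). Leaving out double mutant replicate 3 gave a median of 0.0081, against -0.0293 over all tested probe sets. Leaving out RAG1-deficient replicate 2 gave -0.0264, against -0.0491. Each of these steps leaves a title style in 1 group only. With a whole pair left out the median was 0.2096 (numbered), 0.1253 (Rag) and 0.0645 (Thy). The median was 0.2257 without RAG1-deficient replicate 1.

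DNA replication genes, which act in the S phase before mitosis, lay higher than the mitotic list. Of 43 genes 38 were tested. Of these, 35 were above 0 (92.1%, against 49.6% of all tested probe sets), and the median log2 difference was 0.42. In 30 the double mutant was higher in all 3 pairs (78.9%, against 18.8%), and in 1 it was lower in all 3 (2.63%, against 17.1%). In 9 the groups did not overlap (23.7%, against 4.21% of all tested probe sets), all higher in the double mutant. None passed in either limma fit over all probe sets. In the unpaired fit, 5 were higher at an unadjusted p under 0.05 (13.2%, against 2.29%) and 0 were lower, against 0.903%. Whether the 2 lists differ in their response was not tested. With any 1 array left out, the median lay between 0.3255 and 0.4682 for the replication genes and between 0.158 and 0.3652 for the mitotic list.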

How the data were processed

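Total RNA was measured on 6 single-colour Affymetrix mouse arrays. The deposited table holds 1 linear intensity per probe set and array. Read from the values, the authors had scaled each array, since the 2%-trimmed means lie between 500.293 and 500.37; the software is not given in the sources used here, and such scaling removes any shift common to most transcripts. Depth is not defined for arrays, and their number limits the precision.

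Samples were grouped by their descriptions. The 66 control probe sets were left out, which left 12422. Of these 10833 were named for 1 gene by the platform annotation, 396 for several and 1193 for none; 10817 matched a RefSeq gene of GRCm38.p6 by Entrez number, and 0 symbols changed. Values were tested as log2(intensity + 23), with the 20th percentile of all values as the added constant, for probe sets above the 40th percentile (86.5) on at least 3 of 6 arrays, whichever these were. This kept 7642. Groups were compared with limma 3.58.1 (lmFit, eBayes with trend) in R 4.3.3, two-sided, with p-values adjusted over the 7642 probe sets (Benjamini-Hochberg) and called under 0.05. The fit was tested on simulated data. SE are those of the unpaired fit, except in the comparison of title styles. A gene is represented by its probe set with the highest mean over all arrays. Marker sums were compared by exact permutation of the samples, two-sided. SciPy 1.17.1, Python 3.11.15 and matplotlib 3.10.9 were used.

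Deviations from the group means correlated within the numbered, Rag and Thy pairs at 0.570, 0.736 and 0.602, each over the 0.1 required for pairing, and the paired fit is given where a call differs. No label states a shared litter or day.

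The members and all lists were chosen with earlier results of these data known. Values on all arrays are given for 13 genes chosen by role, for the 8 members with the highest and the 4 with the lowest difference, for any member that passed, and for any whose probe sets disagreed by over 0.3 on either side of 0, of which there were 0. Alternatives covered scaling, the added constant, the filter, the variance model, related-transcript probe sets, the block and leaving out arrays or pairs. The alternative called without probe sets of related transcripts left out every probe set ending in _f_at, _s_at, _g_at, _r_at or _i_at. It thus also left out probe sets that are only less specific.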

Additional observations from a re-analysis of the deposited data

How the results depend on the processing

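The list's median log2 difference stayed above 0, between 0.158 and 0.3652, in every alternative run, and moved by less than its spread over the 3 pairs (SD 0.133). Between 29 and 37 of the 40 genes were above 0, or 35 of 39 with the filter at the 60th percentile and 30 of 32 without probe sets of related transcripts; these counts were added after the data were seen. Of 711 values of single members under up to 18 alternatives, 43 in 14 genes changed sign, among them those of Foxm1 and Ube2c; Cenpv never did. Genes higher in every pair kept numbered 23 to 32 with a pair left out, highest without the numbered pair, against 30.9% of all tested probe sets there, and 21 with all 3 pairs.

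Cenpv was the only member called in any alternative. The count of members called was 0 in the unpaired fit and 1 with title style as the replicate block, with quantile scaling, with the constant at the 40th percentile, with the filter at the 60th percentile and without probe sets of related transcripts. It was 0 to 1 with an array left out (1 without RAG1-deficient replicate 1) and 0 to 1 in the block with a pair left out (1 without the Rag pair). The adjusted p of Cenpv in limma ran between 0.01923 and 0.2959, except for 1.108e-10 in the block without the Rag pair, a fit on 4 arrays. Over all probe sets 3 were called, against 51 with the replicate block, 5 with quantile scaling, 6 with the filter at the 60th percentile and 7 without probe sets of related transcripts. With an array left out 0 to 6 were called, and in the block with a pair left out 3 to 191. Leaving out an array leaves its title style in 1 group only. The median of the other mitotic genes lay between -0.0264 and 0.2688 with an array left out, and was 0.0645 to 0.2096 with a pair left out. The cause of these shifts was not tested. Without a background measure, the 10 dim member probe sets cannot be told from no signal.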
